A study of Mus musculus with 9 samples.

Results

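NRF2 and its inhibitor KEAP1 are the regulatory pair of the antioxidant response, and their messages and those of 8 glutathione, thioredoxin and detoxification genes were followed in the RNA of extracellular vesicles (EVs), the membrane particles that cells release. The 10 genes were Nfe2l2, which encodes NRF2, then Keap1, Nqo1, Gclm, Gclc, Txnrd1, Srxn1, Gsr, Osgin1 and Txn1. All non-control probes carrying these gene names were taken, which gave 11 of the 55681 probes of the array, with a pair of probes for Gsr and 1 for each other gene. The EVs came from mouse embryonic fibroblasts (MEFs), primary connective tissue cells, and their total RNA was labelled with cyanine 3 and hybridised to expression arrays. There were 5 arrays of EVs from PBS-treated MEFs and 4 of EVs from control MEFs. PBS is phosphate-buffered saline. The labels give no strain, genotype, passage or duration for either group, and do not state if electric pulses, which the study used for transfection, were part of the PBS treatment. Nothing in the labels ties the replicates to separate cultures, so p-values measure the spread between these arrays, which may be technical. The arrays sat on 2 slides with both groups on each. Replicates 1 to 3 of the PBS-treated group shared slide 1 with replicates 1 and 2 of the control group, and the other 4 arrays were on slide 2.

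In resting cells KEAP1 is the adaptor that brings NRF2 to a ubiquitin ligase built on the cullin CUL3 and the RING protein RBX1, and NRF2 is degraded. Electrophiles and oxidants modify cysteines of KEAP1, NRF2 accumulates, pairs with a small MAF protein in the nucleus and binds antioxidant response elements, while the repressor BACH1 competes for the same elements. The target genes make glutathione, keep glutathione and thioredoxin reduced, supply NADPH for both, and conjugate or export reactive compounds. Much of this control acts on NRF2 protein, which these arrays did not measure.

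Between 12584 and 19233 probes were well above background per array. PBS-treated EVs had 17969 ± 1199 such probes (SD, n = 5) and control EVs 14016 ± 1607 (SD, n = 4, exact permutation test over 126 splits, two-sided, p = 0.00794, the smallest these splits allow). The difference was 2447 on slide 1 (exact permutation test, p = 0.2 with a smallest possible p of 0.1) and 5519 on slide 2 (p = 0.333, also exact and the smallest that 2 arrays against 2 allow). Control replicates 3 and 4, on slide 2, had 12673 and 12584 such probes, against 15554 and 15252 on the control arrays of slide 1. The vesicles were checked against markers. Of 11 fibroblast markers, 9 were well above background on at least 4 arrays, with Thy1 on none, and their summed level, relative to the 75th percentile, ran from 12.2 to 14.4 in PBS-treated and 11.4 to 13.9 in control EVs. Of 10 leukocyte markers, 5 reached 4 arrays while Adgre1, Cd68, Fcgr1 and Lyz2 were on none, with summed levels of 1.17 to 2.15 in PBS-treated and 2.25 to 3.47 in control EVs. Itgam was the brightest of these 5 genes, with mean log2 levels of -0.09 in PBS-treated and 1.21 in control EVs. Only Cd14 of the 5 had its higher mean in PBS-treated EVs, at -1.73 against -3.94. The epithelial sum was 0.0258 to 0.0530 against 0.0590 to 0.114 with 1 of 5 genes on at least 4 arrays and none of Cdh1, Epcam and Krt18, and the endothelial sum 0.105 to 0.139 against 0.244 to 0.425 with 2 of 4 genes and neither Cdh5 nor Tek. The part of these levels in the results was not tested. In RNA of whole vesicle preparations, fewer vesicles that carry a message and less of that message per vesicle cannot be told apart, and the arrays do not show what the parent cells contained.

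Promoter sequences are shown for members whose window held an antioxidant response element core and whose messages did or did not move. RefSeq promoter windows on GRCm38.p6 matched 8 of the 10 genes with 10 windows. Gclc and Gsr had no entry. The 250 bases before each start were searched on both strands for TGACNNNGC and TGAGNNNGC, in which N is any base, and matches are in capitals. Of 32851 windows of this length, 10.2% held the first spelling and 14.4% the second, with 23.0% holding either. Among the 10 member windows 5 held either, those of Nfe2l2, Srxn1, Gclm, Osgin1 and 1 of the 3 Txnrd1 windows. The Nfe2l2 window is chr2:75704664-75704913 on the minus strand, the Srxn1 window chr2:152105274-152105523 on the plus strand, the Txnrd1 window chr10:82858956-82859205 on the plus strand and the Osgin1 window chr8:119436897-119437146 on the plus strand. Each is written 5′ to 3′ in the direction of its gene.
Nfe2l2: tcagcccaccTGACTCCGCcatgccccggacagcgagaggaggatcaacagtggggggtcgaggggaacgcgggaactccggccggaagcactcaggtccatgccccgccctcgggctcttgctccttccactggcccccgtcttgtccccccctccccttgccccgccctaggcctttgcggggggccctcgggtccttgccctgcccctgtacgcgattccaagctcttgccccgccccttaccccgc
Srxn1: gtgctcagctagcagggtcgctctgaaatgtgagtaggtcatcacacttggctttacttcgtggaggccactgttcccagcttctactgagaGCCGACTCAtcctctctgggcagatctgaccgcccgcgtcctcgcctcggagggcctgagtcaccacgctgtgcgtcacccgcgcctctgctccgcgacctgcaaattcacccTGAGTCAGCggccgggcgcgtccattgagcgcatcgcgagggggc
Txnrd1: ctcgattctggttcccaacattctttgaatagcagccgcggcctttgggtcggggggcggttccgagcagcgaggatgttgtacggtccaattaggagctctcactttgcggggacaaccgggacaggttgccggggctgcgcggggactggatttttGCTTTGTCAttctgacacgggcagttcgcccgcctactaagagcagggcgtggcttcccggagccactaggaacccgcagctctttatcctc
Osgin1: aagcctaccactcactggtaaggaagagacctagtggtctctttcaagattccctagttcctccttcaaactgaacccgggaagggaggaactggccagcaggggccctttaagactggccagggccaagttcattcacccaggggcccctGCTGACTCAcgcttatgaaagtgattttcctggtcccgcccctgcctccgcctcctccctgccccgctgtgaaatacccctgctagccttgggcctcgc

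The Nfe2l2 match reads TGACTCCGC on the strand of the gene, 240 to 232 bases before the start. Srxn1 held a pair of matches. TGAGTCGGC lies on the opposite strand 158 to 150 bases before the start, and TGAGTCAGC on the same strand 45 to 37 bases before it. Osgin1 held TGAGTCAGC on the opposite strand, 99 to 91 bases before the start. The TGAGTCAGC matches of Srxn1 and Osgin1 contain TGAGTCA, the element that AP-1 binds, so the letters fit both factors. Txnrd1 held TGACAAAGC 92 to 84 bases before the start, and Gclm, whose window is not shown, TGACGGTGC 134 to 126 bases before it, both on the opposite strand. A match describes these letters in this window and is no evidence of binding.

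Signals are given as log2 of the processed intensity minus the array's own 75th percentile, taken over 8422 probes that were well above background on every array, so a difference of 1 is a doubling relative to that percentile. A probe was tested if it was well above background on at least 4 arrays. Of the 11 member probes 10 passed this filter, representing 9 genes, and Gclm did not. Nfe2l2, Gclc, Nqo1 and Osgin1 cleared background on 5 PBS-treated but 2 control arrays, and 1 Gsr probe on 3 control arrays. They passed the filter only with the PBS-treated arrays, which limits the counts, median and percentiles below. With only probes well above background on all arrays, 4 of 5 member probes were higher and 1 lower, against 2734 and 2531 of 8422 probes. At a Benjamini-Hochberg adjusted p under 0.05 (limma, over all 17765 probes tested), 8 member probes were higher and 1 was lower in PBS-treated EVs. Of all probes tested 31.5% were higher and 21.0% lower. The same 8 probes lay above, and the same 1 below, with no overlap between the groups, against 29.2% and 17.8% of all probes. The median difference of the 10 tested member probes was 1.46, and that of all probes -0.0013. Since many probes of the arrays changed, single members are described below by size. The share of all probes with a smaller difference is given as a percentile. Keap1 was at percentile 24.4, Osgin1 44.1, Srxn1 83.4, Txn1 84.6, the Gsr probes 87.1 and 91.2, and Txnrd1 89.8. Gclc and Nqo1 were both at 98.4.

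**Figure D1:**
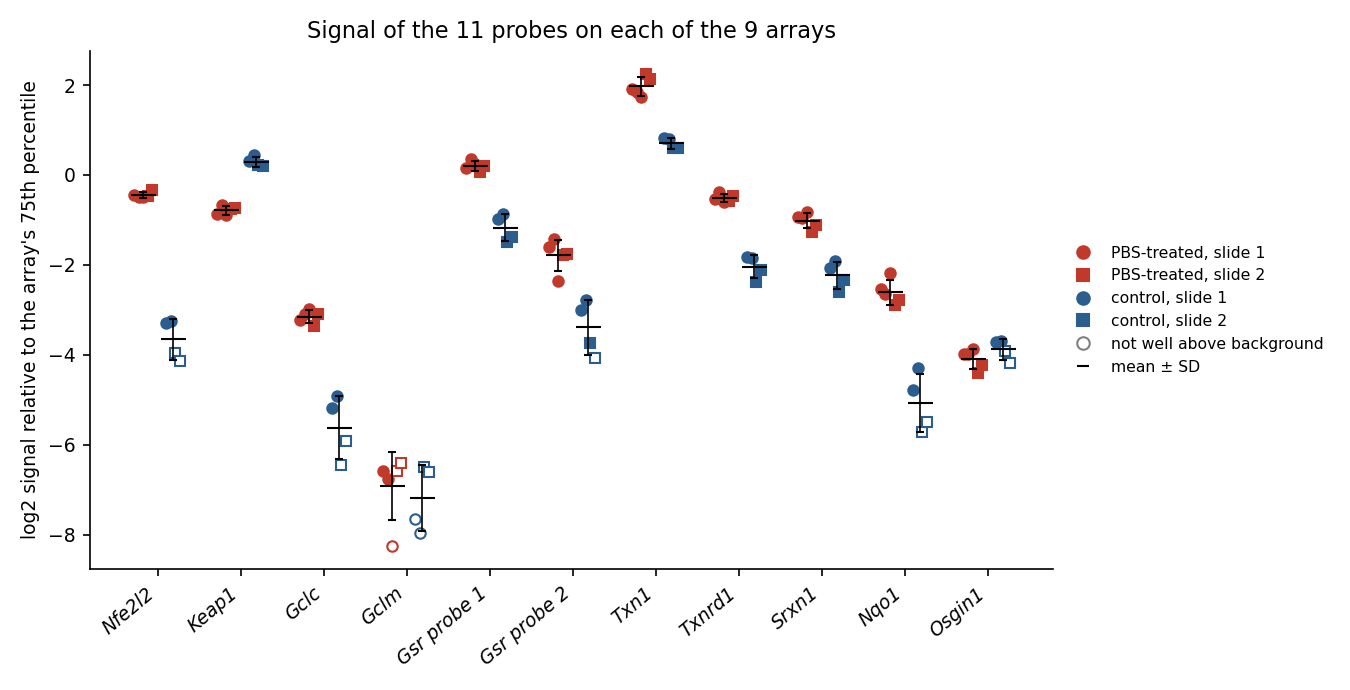
Signal of each of the 11 probes (log2, with the array's 75th percentile at 0), with 1 point per array, bars for mean ± SD, circles for slide 1, squares for slide 2 and open symbols where the probe was not well above background. For 8 probes all PBS-treated points lie above all control points, for Keap1 they lie below, and the groups overlap for Gclm and Osgin1.

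Nfe2l2 had the largest difference of the 10 genes. Its probe lies at chr2:75513771-75513830 on mm9, the build of the array annotation. Signals in PBS-treated EVs were -0.45, -0.50, -0.50, -0.47 and -0.34 in replicates 1 to 5, and those in control EVs -3.29, -3.24, -3.97 and -4.14 in replicates 1 to 4. The PBS-treated arrays lay close together, while the control arrays of slide 2 lay below those of slide 1 and were not well above background. The means were -0.45 ± 0.07 (SD, n = 5) and -3.66 ± 0.46 (SD, n = 4), a rise of 3.21 ± 0.21 (log2, SE), or 9.25-fold (limma adjusted p = 8.37e-06). With normexp, another model of the background, the rise was 2.08, and in the deposited table of log2 values 2.46. The probe was at percentile 99.5 of all probes tested, and between 99.3 and 99.7 over the 7 scalings and background corrections. Spike-in scaling and the percentile over all probes shift a whole array, so they leave this rank unchanged by arithmetic. The difference was 2.78 on slide 1 and 3.65 on slide 2.

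Keap1 moved the other way. Its 60-base probe spans chr9:21035292-21035732 on mm9, a stretch of 441 bases, so it joins separate genomic segments and is shown because it reads a spliced message.
Keap1 probe: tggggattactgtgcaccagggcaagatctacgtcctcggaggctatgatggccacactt

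Keap1 was well above background on all 9 arrays. Its signals were -0.87, -0.66, -0.90, -0.76 and -0.73 in PBS-treated and 0.30, 0.44, 0.22 and 0.20 in control EVs. The groups did not overlap, and the control arrays of slide 2 lay slightly below those of slide 1. Keap1 fell by 1.07 ± 0.11 (log2, SE, limma adjusted p = 8.13e-05), with -1.18 on slide 1 and -0.96 on slide 2. Without the scaling to the percentile the groups overlapped, since the processed intensity was 646.8 to 1382 in PBS-treated and 498.1 to 1389 in control EVs. Under spike-in scaling the Keap1 difference was 0.20 and did not pass (limma adjusted p = 0.179), and with the percentile over all probes it was -0.67 (limma adjusted p = 0.210). Those scalings moved the median of all probes to 1.28 and 0.40. Relative to that median Keap1 was at -1.07 under both of them, as in the reported setting. That agreement is arithmetic and no separate support, since both scalings shift every probe of an array alike. Over the 7 scalings and background corrections, these included, the value was between -1.27 and -0.58.

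Within an array, the distance between the Nfe2l2 and Keap1 probes is not moved by a shift of the whole array, as in scaling to a percentile or to spike-ins. Nfe2l2 minus Keap1 was 0.42, 0.16, 0.39, 0.29 and 0.39 on the PBS-treated arrays and -3.59, -3.68, -4.19 and -4.34 on the control arrays. The 2 groups were separated by a shift of 4.28, with 3.96 on slide 1 and 4.61 on slide 2. Settings that change signals unevenly within an array moved this shift to 4.47 (quantile normalization), 3.44 (value table) and 3.20 (normexp).

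**Figure D2:**
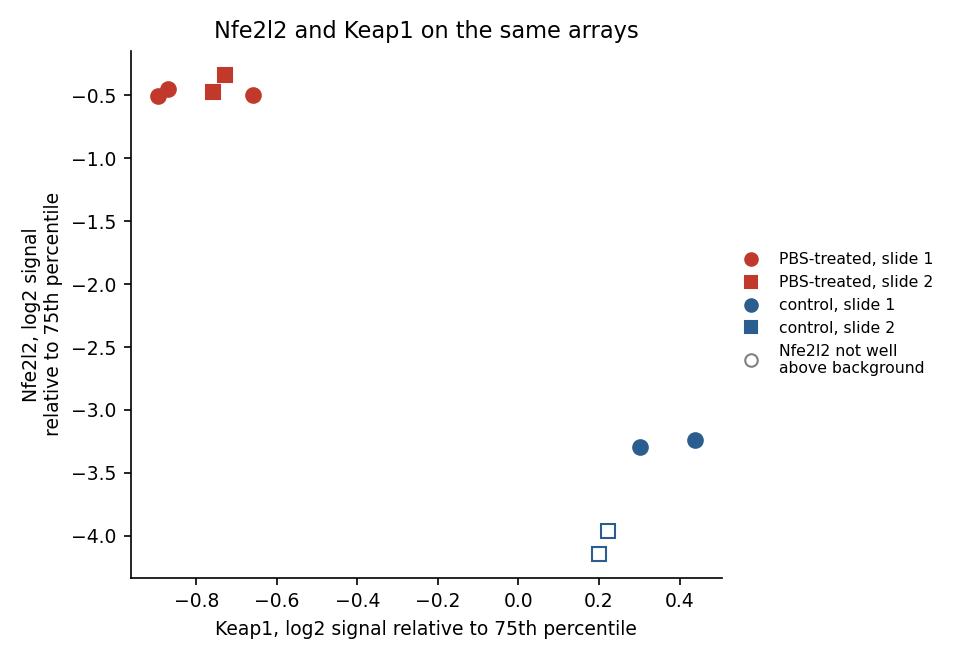
Signal of Nfe2l2 against Keap1 on each of the 9 arrays, both in log2 with the 75th percentile of the array at 0. The PBS-treated arrays lie at high Nfe2l2 and low Keap1 and the control arrays at low Nfe2l2 and high Keap1, with open symbols for the control arrays of slide 2, where Nfe2l2 was not well above background.

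After the group means were subtracted, the probes that followed Nfe2l2 most closely over the 9 arrays were those of Cpe, Rev3l and Ensa, with Pearson r of 0.995, 0.995 and 0.993. For Keap1 they were Prpf4b, Slc2a8 and Gtpbp2, with r of 0.979, 0.962 and 0.957. The arrays share slides, and much of the Nfe2l2 spread that remained was the gap between slides in control EVs.

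The glutathione genes were next. Gclc and Gclm encode the catalytic and modifier subunits of glutamate-cysteine ligase, which catalyses the rate-limiting step of glutathione synthesis, and Gsr encodes the reductase that regenerates glutathione from its disulfide. The Gclc probe (mm9 chr9:77641296-77641355) gave -3.23, -3.10, -2.97, -3.37 and -3.09 in PBS-treated and -5.19, -4.92, -6.45 and -5.91 in control EVs. All PBS-treated arrays were above all control arrays, and control replicates 3 and 4 were again the lowest and not well above background. The rise was 2.47 ± 0.30 (log2, SE), or 5.53-fold (limma adjusted p = 0.000196), with 1.96 on slide 1 and 2.95 on slide 2. With normexp it was 0.48 and did not pass (limma adjusted p = 0.0546), and in the value table it was 1.05.

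The modifier subunit was barely measured. The Gclm probe spans chr3:121962174-121964809 on mm9, 2636 bases of genome for 60 bases of probe, and so crosses at least 1 intron.
Gclm probe: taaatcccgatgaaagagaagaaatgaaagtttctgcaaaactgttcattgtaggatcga

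The probe cleared background on PBS-treated replicates 1 and 2, that is 2 of 5 arrays, and on no control array. Its signals were -6.59, -6.77, -8.25, -6.59 and -6.41 in PBS-treated and -7.65, -7.97, -6.51 and -6.60 in control EVs. The groups overlapped throughout, and no fold is given.

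Both Gsr probes rose. Their starts lie 75 bases apart, at chr8:34808488-34808547 and chr8:34808413-34808472 on mm9. The first gave 0.15, 0.36, 0.25, 0.06 and 0.21 in PBS-treated and -0.98, -0.87, -1.49 and -1.38 in control EVs, and was well above background on all 9 arrays. The second gave -1.61, -1.43, -2.36, -1.78 and -1.76 in PBS-treated and -3.01, -2.77, -3.73 and -4.06 in control EVs. Neither overlapped between the groups, although PBS-treated replicate 3 was the lowest of its group at the second probe by a clear gap. The rises were 1.39 ± 0.16 (SE, limma adjusted p = 0.000147) and 1.60 ± 0.30 (SE, limma adjusted p = 0.00219), or 2.61-fold and 3.04-fold. With normexp they were 1.30 and 0.67. The rises of 1.39 and 1.60 differed by less than the standard error of the second.

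The thioredoxin branch followed. Txn1 encodes cytosolic thioredoxin, Txnrd1 the selenoprotein reductase that recharges it with NADPH, and Srxn1 sulfiredoxin, which repairs over-oxidised peroxiredoxins. The Txn1 probe (mm9 chr4:57956677-57956736) gave 1.90, 1.84, 1.74, 2.24 and 2.13 in PBS-treated and 0.83, 0.79, 0.60 and 0.60 in control EVs. The Txnrd1 probe (mm9 chr10:82360230-82360289) gave -0.53, -0.38, -0.61, -0.57 and -0.46 in PBS-treated and -1.83, -1.84, -2.37 and -2.11 in control EVs. The Srxn1 probe (mm9 chr2:151937009-151937068) gave -0.94, -0.96, -0.83, -1.26 and -1.11 in PBS-treated and -2.06, -1.93, -2.60 and -2.35 in control EVs. All 3 were well above background on every array and did not overlap between the groups. The PBS-treated arrays of slide 2 were the highest for Txn1 and the lowest for Srxn1. Txn1 rose by 1.26 ± 0.14 (2.40-fold, limma adjusted p = 0.000128), Txnrd1 by 1.53 ± 0.14 (2.88-fold, limma adjusted p = 5.05e-05) and Srxn1 by 1.21 ± 0.17 (2.32-fold, limma adjusted p = 0.000419, log2 and SE throughout). The slide 1 and slide 2 differences were 1.01 and 1.59 for Txn1, 1.33 and 1.72 for Txnrd1, and 1.08 and 1.29 for Srxn1. With normexp the rises were 1.37 for Txn1, 0.98 for Txnrd1 and 0.80 for Srxn1, and all 3 passed.

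Nqo1 and Osgin1 are both used as reporters of NRF2 activity, and they parted. Nqo1 encodes a quinone reductase that uses NADH or NADPH. Its probe (mm9 chr8:109912440-109912499) gave -2.55, -2.64, -2.18, -2.90 and -2.79 in PBS-treated and -4.79, -4.30, -5.71 and -5.50 in control EVs. No control array reached a PBS-treated one, and control replicates 3 and 4 were not well above background. The rise was 2.47 ± 0.30 (log2, SE), or 5.52-fold (limma adjusted p = 0.000210), with 2.09 on slide 1 and 2.76 on slide 2. It was 0.52 with normexp (limma adjusted p = 0.0470) and 1.14 in the value table. Osgin1, an oxidative stress-induced growth inhibitor, gave -3.99, -3.97, -3.88, -4.41 and -4.23 in PBS-treated and -3.72, -3.69, -3.92 and -4.19 in control EVs at chr8:121970077-121970136 on mm9. Those groups overlapped, and the difference of -0.22 ± 0.16 (log2, SE) did not pass (limma adjusted p = 0.294). Its sign depended on the setting. It was 1.06 and passed under spike-in scaling (limma adjusted p = 0.000217), and -0.61 and passed with normexp (limma adjusted p = 0.0198). Over the 7 settings it stayed between percentiles 43.7 and 51.4 of all probes, near the median of the arrays. Those settings that shift a whole array leave this rank essentially unchanged by arithmetic. The Osgin1 promoter window holds the same TGAGTCAGC letters as that of Srxn1.

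The 4 rising member probes that were well above background on all 9 arrays, those of Txn1, Txnrd1 and Srxn1 and the first of Gsr, had their larger difference on slide 2, where the control arrays had the fewest probes above background. For Nfe2l2, Gclc and Nqo1 the slide 2 difference was set against control signal not well above background, and for the second Gsr probe this held for 1 of the 2 control arrays. Without control replicates 3 and 4, an alternative chosen after seeing the data, 9 of the 10 tested member probes still passed, 8 higher and 1 lower, as they did with slide as a block and on each slide alone. The difference between slides was not tested.

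**Figure D3:**
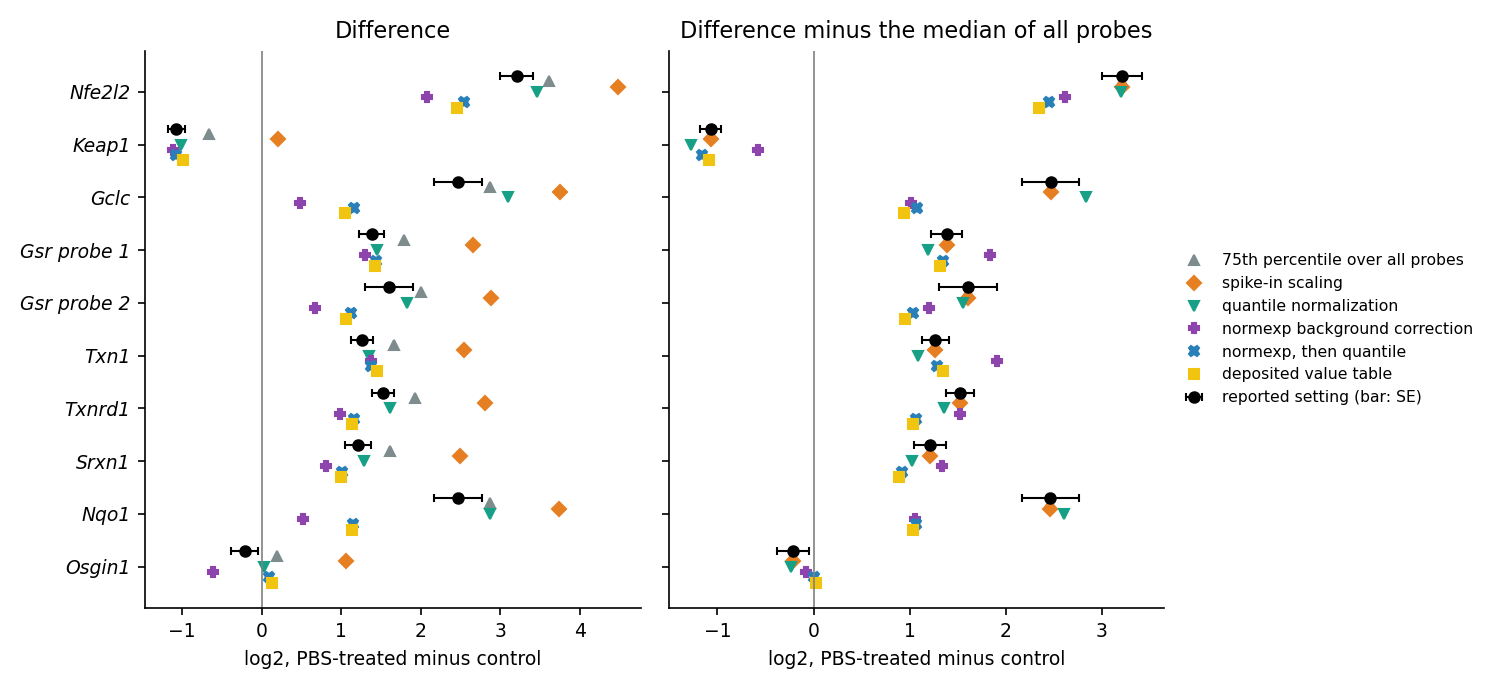
Differences of the 10 tested member probes (log2, PBS-treated minus control) under the reported setting, with its SE, and under 6 other scalings or background corrections, as fitted on the left and after subtraction of the median of all probes on the right. Keap1 lies on both sides of 0 on the left and below it at every setting on the right, and Osgin1 stays near 0 on the right. Settings that shift a whole array coincide on the right by arithmetic.

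The other genes of the pathway were taken from 5 lists with 119 distinct genes, and each gene was read from its tested probe of highest mean signal. Of all 14319 genes 31.5% were higher and 20.7% lower, with a median difference of -0.02. Counts of the lists are read against those shares.

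Among the partners of NRF2 and the machinery of its turnover, 12 of 15 genes were tested, of which 5 rose, 4 fell and 3 did not pass, with a median of -0.30. In the reported setting the genes that fell were all 3 small MAF partners and the repressor BACH1. Mafg lay at -0.15 to -0.06 in PBS-treated and 3.26 to 3.95 in control EVs, a difference of -3.78 ± 0.16 (log2, SE, limma adjusted p = 1.31e-06), and its other probes gave -4.37 and -4.39. Bach1 lay at -3.71 to -3.41 and -0.52 to 0.31, a difference of -3.44 ± 0.21 (limma adjusted p = 6.04e-06). Mafg and Bach1 passed as lower under all 25 alternatives, with values no closer to 0 than -2.50 and -2.16. Maff and Mafk, named after their values were seen, fell by smaller amounts, with differences of -1.07 ± 0.19 and -1.14 ± 0.27. Under spike-in scaling they were at 0.21 and 0.14 and did not pass. Mafk was dim, and cleared background on 4 PBS-treated and 2 control arrays. Probes that never cleared background shifted by -1.34 at the median, more than Mafk did. Mafk passed under 19 of 24 alternatives. It was at -0.68 after quantile normalization, -0.36 after normexp and quantile and -0.32 in the value table, and did not pass.

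Of the 5 genes that rose, 4 serve the cullin ligases. Cul1, the scaffold of the SCF ligase that also degrades NRF2, was at least 3.72-fold higher in background-subtracted signal. The bound was set by its absence above background from all 4 control arrays. With normexp background correction its difference was 0.19, below that bound, and did not pass. The remaining 4 were named after their values were seen. Cul3, the scaffold that KEAP1 uses, rose by 1.71 ± 0.19 and was at 0.31, not passed, with normexp. The shared RING subunit gene Rbx1 rose by 0.79 ± 0.15, with its other probes at 0.81 and 0.91. Cand1, which exchanges cullin adaptors, rose by 1.85 ± 0.22, but its other tested probe was at 0.28 and did not pass. Dpp3, a peptidase that binds KEAP1, rose by 0.50 ± 0.11. Keap1 was lower while the scaffold and RING messages of its ligase were higher.

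For glutathione synthesis, import and use, 26 of 38 genes were tested, and 15 rose, none fell and 11 did not pass, with a median of 0.68. These calls are by the probe of highest mean, and the other tested Glrx3 probe was at -0.73 and passed as lower. At an unadjusted limma p under 0.05 1 of the 26 was lower, and none by the methods' t-test after adjustment. However, 2 passed as lower with array weights and 2 on slide 1 alone. Several other settings had 1, among them slide as a block, slide 2 alone, the value table, and normexp and quantile. So did the filter that keeps only probes well above background on all arrays. With normexp 7 rose and 2 fell and the median was 0.09, and with the percentile over all probes 9 rose. Glrx encodes the glutaredoxin that removes glutathione from proteins. In background-subtracted signal its message was at least 19.8-fold higher, with signals of -1.17 to -0.92 in PBS-treated EVs. It entered the test only through the PBS-treated arrays, since no control array was well above background. The bound holds only for the background-subtracted signal. In other settings the difference was below that bound, at 2.19 with normexp and 2.64 in the deposited value table (log2). Gstt1, a theta-class glutathione transferase, rose by 3.37 ± 0.14, with 1.12 to 1.50 in PBS-treated and -2.32 to -1.95 in control EVs (limma adjusted p = 1.33e-06). Gsta1, an alpha-class transferase that also entered the test only through the PBS-treated arrays, was at least 3.70-fold higher on the same terms. Its probe may also read its close paralogs. With normexp Gsta1 was at 0.18, below its bound, and did not pass. Gss, named after its value was seen, encodes the second enzyme of glutathione synthesis and rose by 1.52 ± 0.35 (limma adjusted p = 0.00627), but it was at -0.17 with normexp. The cystine importer gene Slc7a11 reached background on none of the 9 arrays.

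In the thioredoxin system 23 of 24 genes were tested, and 10 rose, 5 fell and 8 did not pass, with a median of 0.68. Among those that rose, Txnl1 and Msra entered the test only through the PBS-treated arrays, with no control array well above background. With normexp 4 rose and 7 fell, and the median was -0.23. With only probes well above background on all arrays, 5 of 14 rose and 5 fell, with a median of 0.14. On slide 1 alone the median was 0.24. The 3 with the largest change were among those that fell. Txndc5, a protein disulfide isomerase of the endoplasmic reticulum, changed by -3.89 ± 0.34 (log2, SE), with -3.63 to -3.03 in PBS-treated and -0.13 to 1.29 in control EVs (limma adjusted p = 3.71e-05). Prdx4, the peroxiredoxin of that compartment, changed by -1.97 ± 0.24 (limma adjusted p = 0.000182). Sesn2, a stress-induced sestrin, changed by -2.90 ± 0.86 (limma adjusted p = 0.0196), but the control arrays split by slide, at -3.46 and -3.47 on slide 1 and 0.58 and -0.26 on slide 2. The difference was -1.09 on slide 1 and -4.71 on slide 2, and without control replicate 4 it was -2.44 and did not pass (limma adjusted p = 0.0568). The other members that fell, Sesn3 at -1.82 ± 0.14 and nucleoredoxin (Nxn) at -0.82 ± 0.14, were named after their values were seen. Under spike-in scaling Nxn was 0.46 and passed as higher (limma adjusted p = 0.00857). Its second tested probe was at -2.26 and did not pass. Prdx1, a cytosolic peroxiredoxin that Srxn1 repairs, rose by 1.83 ± 0.29, and by 2.08 at its other probe. It too was named after its value was seen.

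For NADPH supply 13 of 15 genes were tested, and 9 rose, none fell and 4 did not pass, with a median of 0.99. None was lower at an unadjusted limma p under 0.05 or by the methods' t-test after adjustment, but 2 passed as lower with array weights and 1 on slide 1 alone. With normexp 5 rose and 1 fell and the median was 0.15. Mthfd1 of the folate cycle rose by 2.41 ± 0.29 (limma adjusted p = 0.000188), although it was 0.48 and did not pass with normexp. G6pdx, which encodes the first enzyme of the pentose phosphate pathway, lay at 0.19 to 0.57 in PBS-treated and -1.82 to -1.04 in control EVs, a rise of 1.76 ± 0.17 (limma adjusted p = 6.06e-05). Me1, cytosolic malic enzyme, rose by 1.74 ± 0.28 (limma adjusted p = 0.000857) and by 1.62 and 1.93 at its other probes.

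Among 28 other NRF2 target genes 22 were tested, and 12 rose, 4 fell and 6 did not pass, with a median of 0.86. With normexp 11 rose and 6 fell, and the median was 0.53. Abcc3, which encodes an exporter of glutathione and glucuronide conjugates, was at least 13.8-fold higher on the same terms, with no control array well above background. Its difference was below that bound in other settings, at 1.56 with normexp and 2.15 in the value table (log2). Signals of the metallothionein gene Mt2 were 6.30 to 6.94 in PBS-treated and 2.60 to 3.10 in control EVs. Abcc4, a related exporter, changed by -2.95 ± 0.98 (limma adjusted p = 0.0324), but its control values split by slide, at -3.72 and -4.43 on slide 1 and 0.42 and -0.20 on slide 2. Its difference was -0.83 on slide 1 and -5.08 on slide 2, and without control replicate 3 or 4 it was -2.15 or -2.36 and did not pass, as under 11 of 25 alternatives in all. The other members that fell, named after their values were seen, were Ftl1 at -1.16 ± 0.14, Lrrc8d at -1.03 ± 0.30 and Cat at -0.62 ± 0.14. The second Cat probe rose by 1.32, so the probes disagree. All 3 genes were above 0 under spike-in scaling, where Cat passed as higher (limma adjusted p = 0.00177). Ftl1 and Fth1 encode the light and heavy chains of ferritin. Fth1, also named after its value was seen, rose by 2.69 ± 0.20 while Ftl1 fell.

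**Figure D4:**
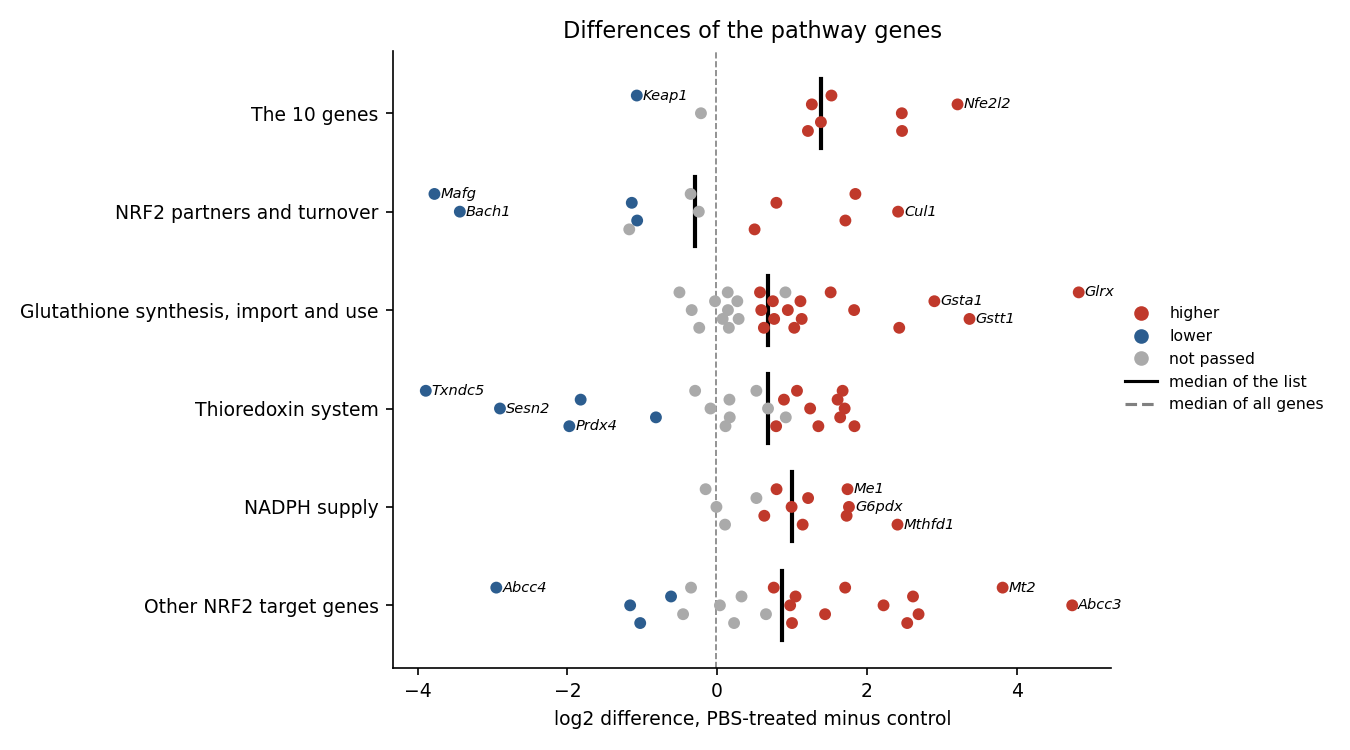
Log2 difference between PBS-treated and control EVs for each tested gene of the 10 and of the 5 pathway lists, coloured by its call at a limma adjusted p under 0.05, with the median of each group as a bar and that of all genes as a dashed line. The bars of 4 lists lie between 0.68 and 0.99, that of the NRF2 partners lies at -0.30, and the genes named by rule are labelled.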

How the data were processed

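Total RNA of MEF-derived EVs was measured on 9 one-colour Agilent mouse arrays, 5 PBS-treated and 4 control, as grouped by the labels. Per the file headers, the authors quantified the scans with Agilent Feature Extraction 10.7.3.1, and the deposited intensity of each spot is background-subtracted and not normalised between arrays. The paper names an in-house pipeline, SLIMarray, for its array data. A deposited table of log2 values, whose normalization is not stated, ranked probes as the mean signal did on each array (Spearman 1.0, median 5.97). It served as an alternative, with its scale and centring unstated. Control and non-uniform spots were dropped (3 to 29 per array, none saturated), and log2 intensity was centred on each array's 75th percentile of detected probes. The number of arrays limits the precision.

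Groups were compared with limma 3.58.1 in R 4.3.3 (two-sided, Benjamini-Hochberg, tested on simulated data) over all 17765 probes that were well above background on at least 4 arrays. Where no array of a group reached background, the fold is a bound for the background-subtracted signal. The brighter mean is set against a floor averaged over the dim group, which on each array is the dimmest signal still well above background, or the probe's own signal if that is larger. That floor is no detection limit. On control replicate 3 it was -5.04, while Nfe2l2 at -3.97 was not well above background there. Named list genes were the 3 of each list with the largest difference among called genes without overlap, and a direction's genes where 3 or fewer passed in it. The members and lists were chosen with earlier results of these data known. Gene names come from the array design, updated through RefSeq for 26413 matched probes. Exon annotation of mm9 was not used here. Python 3.11.15 with pandas 2.3.3 and matplotlib 3.10.9 made tables and figures. Alternatives were other scalings (7 spike-in probes among them), normexp with offset 50, filters, slide, a replicate block, array weights, the methods' t-test and leaving out arrays.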

Additional observations from a re-analysis of the deposited data

Results flagged for a closer look

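In PBS-treated replicate 3 the Gclm probe, at -8.25, lay far below the other 4 arrays of its group, with a gap to the nearest of 0.804 of the whole range. The probe was not well above background there. Of 22 groups of values examined, 1 stood out in this way, and chance alone marks about 1 in 20.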

How the results depend on the processing

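Nfe2l2, both Gsr probes, Txn1, Txnrd1, Srxn1 and Nqo1 rose and passed under all their alternatives, with the highest limma adjusted p at 0.0470 for Nqo1 and 0.00212 for Nfe2l2. Between 8 and 10 of the member probes were called at every setting but 1, since 5 of 5 passed where a probe had to be well above background on every array. Of all probes, 9314 were called. The count was 5265 of 8422 under that filter and 6204 with the percentile over all probes. Leaving out 1 array gave 8278 to 9175, with 9 member probes called each time. The member split of 8 higher and 1 lower became 9 and 0 with spike-ins and 8 and 0 with the percentile over all probes. With normexp it was 7 and 2, and with array weights 8 and 2.

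Scaling moved the split between higher and lower probes, from 5591 and 3723 to 4490 and 1714 with the percentile over all probes, 11131 and 910 with spike-ins, 2165 and 6039 with normexp, and 4025 and 6597 with no filter on dim probes, while the median of all probes became 0.40, 1.28, -0.54 and -1.17. Quantile normalization and the value table moved it to 0.26 and 0.11. Under spike-in scaling Keap1 was at 0.20, Osgin1 at 1.06, Maff at 0.21, Mafk at 0.14, Nxn at 0.46, Ftl1 at 0.12, Cat at 0.66, Lrrc8d at 0.25 and the median of the NRF2 partners at 0.98. Among these genes Osgin1, Nxn and Cat passed as higher there. With the percentile over all probes Osgin1 was at 0.19 and the median of the NRF2 partners at 0.11. Osgin1 was at 0.031 after quantile normalization, 0.094 after normexp and quantile, and 0.13 in the value table. With normexp Gss was at -0.17 and the median of the thioredoxin system at -0.23. With the percentile over all probes Keap1, Maff, Mafk, Nxn, Ftl1, Cat, Lrrc8d, Rbx1 and Dpp3 kept their direction and did not pass. The cause was not tested.

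Same-numbered arrays of the groups correlated at 0.703, 0.729, -0.536 and 0.742 after removal of group means. Numbers 1, 2 and 4 shared a slide between the groups and number 3 did not. The values therefore cannot show if the numbers pair the arrays. Control replicates 1 and 3 correlated best with PBS-treated replicates 2 and 4 of their own slides. With a replicate block 9268 probes and 9 member probes were called. Signal over background limits Gclm, and Nfe2l2, Gclc, Nqo1 and Osgin1 on control replicates 3 and 4.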
